A study of Mus musculus with 4 samples.

Results

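The proteasome subunit genes were taken by symbol: every gene listed under Psma, Psmb, Psmc, Psmd, Psme or Psmg followed by digits alone, apart from the interferon-inducible core subunits Psmb8, Psmb9 and Psmb10. This gave 44 of the 22488 genes listed for each library. In the same search Psmc3ip, a meiotic recombination cofactor, and Psme2b, a near copy of Psme2, carried letters after the digits and were not counted. By role the 44 genes divide into 16 of the core particle (8 alpha and 8 beta), 17 of the regulatory particle (9 base and 8 lid), 4 activators and 7 assembly chaperones.

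The proteasome is the main protease of the cytosol and nucleus for proteins tagged with ubiquitin. Its barrel-shaped core is built of alpha rings, which gate the entry, and beta rings, which hold the cutting sites. The regulatory particle sits on the barrel: its lid removes ubiquitin, and its base of ATPases unfolds the substrate and threads it inside. Activators are other caps that open the gate, and dedicated chaperones help to put the core and the base together. When proteasome activity is short, mammalian cells are known to raise subunit genes together through the transcription factor NFE2L1.

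The cells were cultured vascular smooth muscle cells of C57BL/6 mice at passages 4 to 10, sequenced 48 hours after transfection as 150 bp read pairs from total RNA. Of the 4 libraries, 2 came from cells given circEsyt2 siRNA, directed at a circular RNA that bears the name of the gene Esyt2, and 2 from cells given scramble siRNA. Both groups were therefore transfected, and untransfected cells are not among the samples. The labels do not state whether the libraries of a group were separate cultures, and a p-value here can only weigh the spread among 4 samples, part or all of which may be technical. The values were FPKM, that is, reads per kilobase of gene length scaled to the library total. The circular RNA has no value of its own. Esyt2, counted over the whole gene, stood at 40.6 and 48.7 FPKM with circEsyt2 siRNA and at 53.4 and 50.6 FPKM with scramble siRNA, which does not check the knockdown.

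Depth and cell identity set limits on all that follows. The libraries held 3765056 and 3127224 reads assigned to genes with circEsyt2 siRNA, against 2516428 and 4116791 with scramble siRNA, and 1 read in a gene of 1 kb was worth 0.243 to 0.397 FPKM. Over the 11290 genes tested, Pearson's r on the log2 scale was 0.931 between the circEsyt2 siRNA libraries and 0.972 between the scramble siRNA libraries, a description across genes. Of 6 smooth muscle markers abundant enough to test, 5 fell with circEsyt2 siRNA, where 7.26% of all genes tested fell, and the whole list of 8 summed to 919 and 873 FPKM against 1525 and 1543 FPKM with scramble siRNA. Acta2, smooth muscle actin, made up most of that sum, while Myocd and Des did not exceed 1.05 FPKM in any library. Hepatocyte markers set circEsyt2 siRNA replicate 1 apart: the 9 listed genes summed to 2987 FPKM there and to 94.2 FPKM in replicate 2, against 12.2 and 3.53 FPKM with scramble siRNA. Summed macrophage markers (29.3 and 3.60 FPKM with circEsyt2 siRNA, 3.88 and 5.92 FPKM with scramble siRNA) and epithelial markers (13.2 and 0.432 FPKM, against 0.746 and 1.21 FPKM) were also highest in that replicate. Lyz2 made up most of the macrophage sum there (21.4 FPKM), and Cd68, Adgre1 and Ptprc were also highest there, at 3.59 FPKM or less. Csf1r went the other way, with 1.74 and 0.262 FPKM against 1.87 and 3.48 FPKM. Fibroblast markers summed to 261 and 240 FPKM against 342 and 341 FPKM, endothelial markers to 8.33 and 6.35 FPKM against 3.31 and 3.66 FPKM, and skeletal or cardiac muscle markers to at most 1.14 FPKM. Of the 5 fibroblast markers, Thy1, Pdgfra and Mfap5 fell (60.0%, against 7.26% of all genes tested). Dcn, most of that sum with circEsyt2 siRNA, had a log2 fold change of 0.09 and did not pass. The part of these differences in the proteasome values was not tested, and results are given for each circEsyt2 siRNA library on its own where the pair disagreed.

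Proteasome genes were abundant in every library. Together the 44 genes took 0.840% and 0.857% of all FPKM with circEsyt2 siRNA, and 0.756% and 0.758% with scramble siRNA. Their FPKM summed to 2609 and 2433 with circEsyt2 siRNA and to 2135 and 2236 with scramble siRNA, which is 2521 ± 124 against 2186 ± 71.8 (SD, n = 2 each) and a ratio of 1.15. The circEsyt2 siRNA libraries both lay above the scramble siRNA libraries. In bulk RNA of this kind, a change in RNA per cell and a change in the share of cells of one kind cannot be told apart.

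Of the 44 genes, 42 had a mean of at least 1 FPKM and were tested with limma on log2(FPKM + 1), with Benjamini-Hochberg adjustment over all 11290 genes tested. Of these, 5 rose with circEsyt2 siRNA, 0 fell and 37 did not pass an adjusted p of 0.05. Over all genes tested, 5.47% rose and 7.26% fell, while 11.9% of the tested proteasome genes rose. At an unadjusted p under 0.05 there were 14 higher and 4 lower (33.3% and 9.52%, against 14.2% and 15.9% of all genes tested). The log2 fold change was positive for 32 of the 42 (76.2%, against 50.2% of all genes tested) and negative for 10, with a median of 0.21, against 0.00 over all genes tested. Both circEsyt2 siRNA libraries lay above both scramble siRNA libraries for 17 of the 42 genes (40.5%), against 29.7% of all genes tested. They lay below for 6 (14.3%), against 31.1% of all genes. Set singly against the scramble siRNA mean, the genes had a median log2 difference of 0.25 in circEsyt2 siRNA replicate 1 and 0.13 in replicate 2.

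**Figure D1:**
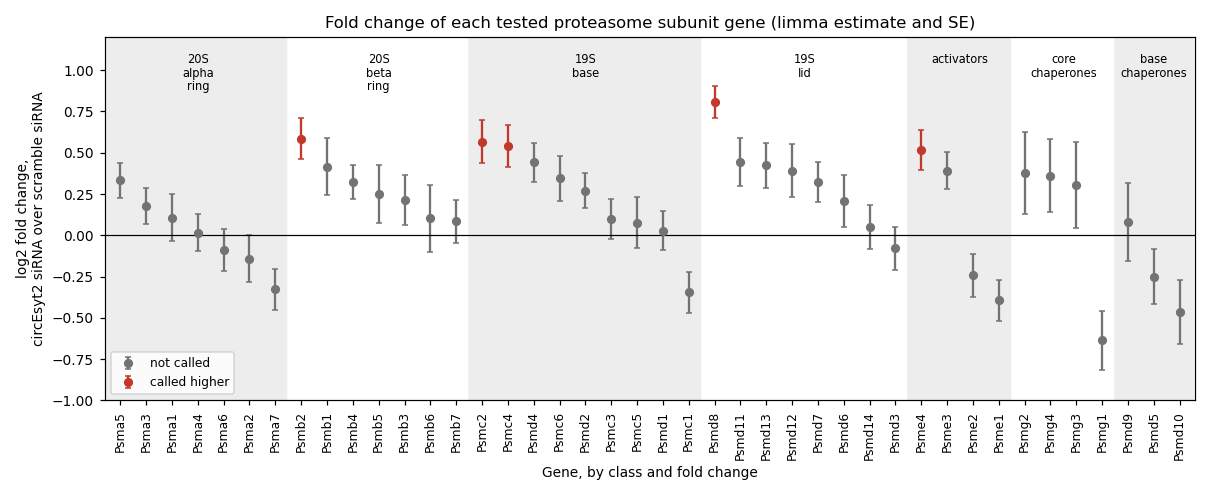
Log2 fold change (circEsyt2 siRNA over scramble siRNA, on log2(FPKM + 1)) of each of the 42 tested proteasome genes, grouped by role along the x axis, with error bars for the standard error of the limma fit. The 5 genes in red, Psmd8, Psmb2, Psmc2, Psmc4 and Psme4, passed an adjusted p of 0.05 and all lie above 0.

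The gene with the largest rise was Psmd8 (ENSMUSG00000030591), which encodes a lid subunit. It is on the minus strand of mouse chromosome 7, at chr7:29174188-29180701 on GRCm38. Psmd8 stood at 176 and 171 FPKM with circEsyt2 siRNA and at 96.2 and 101 FPKM with scramble siRNA, or 173 ± 3.29 against 98.4 ± 3.17 (SD, n = 2 each). The gap between the groups was many times the spread within either. The log2 fold change was 0.81 with a standard error of 0.10 and an adjusted p of 0.00786 in limma. It rested on 2022 and 1635 reads against 740 and 1267 reads. Psmd8 passed the threshold in 12 of the 18 alternative fits, more than any other proteasome gene, with adjusted p from 0.000914 to 0.185 over them.

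The other 4 that rose came from 3 different parts of the complex and passed the threshold narrowly. Psmb2, a structural subunit of the beta ring (chr4:126677630-126709714, plus strand), was the most abundant beta gene, with 151 and 128 FPKM with circEsyt2 siRNA and 97.0 and 87.8 FPKM with scramble siRNA (log2 fold change 0.59, standard error 0.13, limma adjusted p = 0.0373). Psmc2, an ATPase of the base (chr5:21785283-21803787, plus strand), had 38.2 and 38.5 FPKM against 27.6 and 23.6 FPKM (0.57, standard error 0.13, limma adjusted p = 0.0443). For each of these genes the lowest circEsyt2 siRNA library exceeded the highest scramble siRNA library, as for 29.7% of all genes tested. The genes were picked by a test on the same values, so this lack of overlap adds no support. Psmc4, another base ATPase (chr7:28041707-28050101, minus strand), had 78.2 and 71.1 FPKM with circEsyt2 siRNA and 47.2 and 55.0 FPKM with scramble siRNA (0.54, standard error 0.13, limma adjusted p = 0.0471). Psme4, which encodes the PA200 activator (chr11:30771726-30880361, plus strand), had 31.1 and 33.9 FPKM against 21.9 and 22.9 FPKM (0.52, standard error 0.12, limma adjusted p = 0.0490). Again the groups did not overlap. Psmb2 passed in 8 of 18 alternative fits, and Psmc2, Psmc4 and Psme4 in 6 each. With eBayes without a trend, none of the 5 passed. Without circEsyt2 siRNA replicate 1, and without replicate 2, only Psmd8 passed (without replicate 1 it did not pass either once genes were filtered on all 4 libraries), and none of the 5 passed when scramble siRNA replicate 1 or replicate 2 was left out. Set singly against the scramble siRNA mean, Psmd8 was higher by 0.83 and 0.79 (log2) in circEsyt2 siRNA replicates 1 and 2, Psmb2 by 0.71 and 0.46, Psmc2 by 0.56 and 0.57, Psmc4 by 0.61 and 0.47, and Psme4 by 0.46 and 0.58. None of the 5 overlaps another gene's exons or shares a 100-base stretch with another transcript in GENCODE M21.

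The promoters of 4 of the genes that rose, all but Psmb2, are shown because NFE2L1 and NFE2L2 bind the antioxidant response element, whose core TGACNNNGC can be read from sequence. RefSeq (GRCm38.p6) gave the 250 bases before and 50 after the start for 36 of the 44 genes. Capitals mark TGACNNNGC or CCAAT on either strand. They run 5′ to 3′ on the gene's strand, for Psmd8 (chr7:29180624-29180923, minus), Psmc2 (chr5:21785025-21785324, plus, the upstream of the starts listed), Psmc4 (chr7:28050043-28050342, minus) and Psme4 (chr11:30771525-30771824, plus).
Psmd8: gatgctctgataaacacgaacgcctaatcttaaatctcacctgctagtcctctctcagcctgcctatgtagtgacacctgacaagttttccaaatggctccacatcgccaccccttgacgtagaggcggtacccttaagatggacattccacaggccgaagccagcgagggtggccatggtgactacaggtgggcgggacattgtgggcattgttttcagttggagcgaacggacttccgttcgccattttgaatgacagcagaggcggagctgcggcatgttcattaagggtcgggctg
Psmc2: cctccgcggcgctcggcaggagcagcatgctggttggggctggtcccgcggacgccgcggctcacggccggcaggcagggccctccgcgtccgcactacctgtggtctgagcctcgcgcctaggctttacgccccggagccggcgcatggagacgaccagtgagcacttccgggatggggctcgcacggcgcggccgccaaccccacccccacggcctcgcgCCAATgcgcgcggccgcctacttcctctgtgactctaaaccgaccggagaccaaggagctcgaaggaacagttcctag
Psmc4: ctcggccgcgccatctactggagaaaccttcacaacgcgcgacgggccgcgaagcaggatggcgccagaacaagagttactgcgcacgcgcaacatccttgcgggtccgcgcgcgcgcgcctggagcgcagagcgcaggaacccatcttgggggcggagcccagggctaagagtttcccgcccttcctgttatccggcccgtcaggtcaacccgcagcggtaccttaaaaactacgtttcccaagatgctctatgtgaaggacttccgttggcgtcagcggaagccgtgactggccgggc
Psme4: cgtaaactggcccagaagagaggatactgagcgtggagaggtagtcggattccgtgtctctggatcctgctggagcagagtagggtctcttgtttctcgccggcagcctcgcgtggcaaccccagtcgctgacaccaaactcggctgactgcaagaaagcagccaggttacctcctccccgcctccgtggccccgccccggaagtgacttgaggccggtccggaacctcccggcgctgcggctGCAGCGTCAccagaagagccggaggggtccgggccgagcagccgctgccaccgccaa
Psme4 holds GCAGCGTCA, which is TGACNNNGC read on the other strand, in a match that spans the start RefSeq lists, which lies downstream of the gene start given above. Psmc2 holds CCAAT shortly before the start shown. The window of its other listed start (chr5:21786497-21786796) holds neither motif. Neither motif is in the windows of Psmd8 and Psmc4. Counted by gene over all starts listed, TGACNNNGC was found on either strand for 6 of the 36 genes (16.7%), against 14.0% of 27025 genes. The 6 were Psmb5, Psmb6, Psmc6, Psmd9, Psmd12 and Psme4. CCAAT was found in 13 of 36 (36.1%), against 41.1%. No gene of the 36 had both, so the matches do not overlap. A match is a run of letters and was not set against binding data.

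In the alpha ring, which forms the gate of the core, no gene passed the test in limma or voom, and the levels of the groups were close. At an unadjusted p under 0.05, 1 was higher and 1 lower (14.3% each, against 14.2% and 15.9% of all genes tested). The ring's FPKM summed to 580 and 526 with circEsyt2 siRNA and to 532 and 556 with scramble siRNA, a ratio of 1.02, and the median log2 fold change of its 7 tested genes was 0.02. Psma6, the most abundant proteasome gene, had 189 and 156 FPKM with circEsyt2 siRNA and 175 and 190 FPKM with scramble siRNA. Its groups overlapped (log2 fold change -0.09, limma adjusted p = 0.664). The genes of smallest p in this ring lay on opposite sides. Psma5 had 107 and 109 FPKM against 90.2 and 81.1 FPKM (0.33, limma adjusted p = 0.1004), and 23.7% of its 100-base stretches are shared with Gm12989 and Gm8394, so its reads may be split. Psma7 had 33.5 and 35.0 FPKM with circEsyt2 siRNA and 45.8 and 40.7 FPKM with scramble siRNA (-0.33, limma adjusted p = 0.138). Of the rest, Psma3 lay above scramble siRNA in both circEsyt2 siRNA libraries, and Psma1, Psma2 and Psma4 overlapped. Psma8, a testis form of an alpha subunit, was not tested, with 0.852 and 0.256 FPKM against 0.319 and 0.292 FPKM, or 2 to 8 reads a library.

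The beta ring had Psmb2 as its 1 gene that rose (14.3%, against 5.47% of all genes tested). All 7 tested genes had a positive log2 fold change (median 0.25), against 50.2% of all genes tested. Of the 7, 2 were higher and 0 lower at an unadjusted p under 0.05 (28.6% and 0%, against 14.2% and 15.9%). The ring's FPKM summed to 613 and 503 with circEsyt2 siRNA and to 436 and 445 with scramble siRNA, a ratio of 1.27. The circEsyt2 siRNA libraries differed between themselves here: the median log2 difference from the scramble siRNA mean was 0.40 in replicate 1 and 0.06 in replicate 2. Replicate 1 is also the library with the high hepatocyte, macrophage and epithelial marker sums. Psmb4, a structural beta subunit, was alike in the pair, at 120 and 120 FPKM against 99.4 and 92.8 FPKM (0.32, limma adjusted p = 0.0923). Psmb1, another structural subunit, had 67.4 and 48.8 FPKM with circEsyt2 siRNA and 41.9 and 43.6 FPKM with scramble siRNA (0.41, limma adjusted p = 0.172). The 3 genes of the cutting sites did not pass the test and their groups overlapped. Psmb5, of the chymotrypsin-like site, had 93.7 and 71.1 FPKM against 61.9 and 75.7 FPKM (0.25, limma adjusted p = 0.377). Of its 100-base stretches, 22.2% are shared with Gm3375 and Mir686. Psmb6, of the caspase-like site, had 76.5 and 50.4 FPKM against 56.7 and 58.8 FPKM (0.10, limma adjusted p = 0.760), and Psmb7, of the trypsin-like site, had 22.7 and 20.1 FPKM against 19.9 and 20.4 FPKM (0.08, limma adjusted p = 0.703). For Psmb6 and Psmb7 the difference was above 0 in replicate 1 and below 0 in replicate 2. Psmb11, a thymus form, was not tested: it had 4 and 4 reads with circEsyt2 siRNA and 2 and 0 reads with scramble siRNA.

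**Figure D2:**
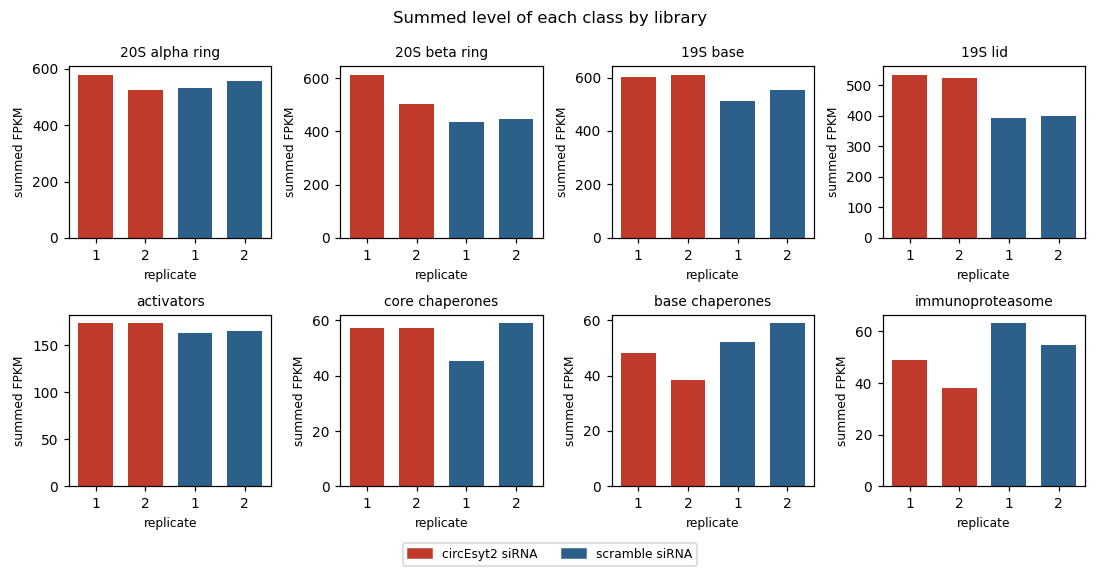
Summed FPKM of the genes of each role, and of the immunoproteasome subunits, with 1 bar for each library and the circEsyt2 siRNA libraries left of the scramble siRNA libraries. In both circEsyt2 siRNA libraries the beta ring, base, lid and activator sums lie above scramble siRNA and the base chaperone and immunoproteasome sums below, while the alpha ring (580 and 526 against 532 and 556 FPKM) and core chaperone sums overlap.

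The immunoproteasome subunits, which replace the 3 cutting subunits after interferon, had negative log2 fold changes. Psmb8, which takes the place of Psmb5, stood at 28.1 and 20.1 FPKM with circEsyt2 siRNA and 32.1 and 27.0 FPKM with scramble siRNA (log2 fold change -0.30, limma adjusted p = 0.347). Psmb9, the counterpart of Psmb6, had 1.60 and 0.699 FPKM against 3.58 and 2.72 FPKM (-0.98, limma adjusted p = 0.112). Psmb10, the counterpart of Psmb7, had 19.3 and 17.3 FPKM against 27.5 and 25.1 FPKM (-0.50, limma adjusted p = 0.0650). None of the 3 passed in limma or in limma's voom on recovered reads. At an unadjusted p under 0.05, 2 were lower (66.7%, against 15.9% of all genes tested). Psmb10 passed, as lower, in 1 of 18 alternative fits, that of genes averaging 5 FPKM or more (limma adjusted p = 0.0359, up to 0.330 over the alternatives). Psmb8 overlapped between groups while Psmb9 and Psmb10 lay below scramble siRNA in both circEsyt2 siRNA libraries, as did 31.1% of all genes tested. The 3 summed to 49.0 and 38.1 FPKM with circEsyt2 siRNA and 63.2 and 54.8 FPKM with scramble siRNA. The FPKM of each standard subunit over that of its counterpart gave ratios that did not overlap between groups. Psmb5 over Psmb8 was 3.34 and 3.54 with circEsyt2 siRNA and 1.93 and 2.80 with scramble siRNA, and Psmb7 over Psmb10 was 1.18 and 1.16 against 0.722 and 0.813. Psmb6 over Psmb9 was 47.9 and 72.1 against 15.8 and 21.6, on as few as 8 reads of Psmb9 in a library. These ratios were not tested, and 14.7% of the exon bases of Psmb8 overlap the antisense Gm20496. For Psmb5, 12.1% overlap Mir686 on the same strand, and for Psmb7, 11.8% overlap the antisense Nek6.

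The regulatory particle held 3 of the 5 genes that rose. They were 17.6% of its 17 genes, against 11.9% of all tested proteasome genes and 5.47% of all genes tested. The particle's difference from scramble siRNA was alike in both circEsyt2 siRNA libraries. Its 17 genes summed to 1137 and 1135 FPKM with circEsyt2 siRNA and to 906 and 952 FPKM with scramble siRNA, a ratio of 1.22, with median log2 differences of 0.32 in replicate 1 and 0.36 in replicate 2. Both circEsyt2 siRNA libraries lay above both scramble siRNA libraries for 10 of the 17 genes (58.8%, against 29.7% of all genes tested), and below for 1 (5.88%, against 31.1%). Over the core, the mean FPKM per regulatory subunit divided by that per core subunit was 0.785 and 0.909 with circEsyt2 siRNA and 0.771 and 0.784 with scramble siRNA, so that replicate 2 stood apart and replicate 1 lay close to the scramble siRNA libraries.

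In the base, Psmc2 and Psmc4 rose among 9 genes (22.2%, against 5.47% of all genes tested). Of the 9, 8 had a positive log2 fold change (88.9%, against 50.2%), and the median was 0.27. There were 5 higher and 1 lower at an unadjusted p under 0.05 (55.6% and 11.1%, against 14.2% and 15.9%). The sum was 602 and 611 FPKM with circEsyt2 siRNA and 513 and 553 FPKM with scramble siRNA (ratio 1.14). The 6 ATPases form a single ring, and their log2 fold changes ran from -0.35 to 0.57. Psmc6 had 69.6 and 71.8 FPKM against 49.8 and 61.6 FPKM (0.35, limma adjusted p = 0.155), Psmc3 and Psmc5 overlapped between groups with log2 fold changes of 0.10 and 0.08, and Psmc1 lay below in both libraries. Psmc1 had 65.8 and 72.1 FPKM with circEsyt2 siRNA and 82.0 and 94.1 FPKM with scramble siRNA (-0.35, limma adjusted p = 0.122). Of the 3 base subunits that are not ATPases, Psmd4, a ubiquitin receptor, had 50.4 and 56.1 FPKM against 39.8 and 38.1 FPKM (0.44, limma adjusted p = 0.0634). Psmd2, a scaffold that docks ubiquitin-like domains and the most abundant base gene, had 98.9 and 108 FPKM against 86.5 and 85.1 FPKM (0.27, limma adjusted p = 0.154). Psmd1, the other scaffold, overlapped between groups (0.03, limma adjusted p = 0.896).

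The lid had a class median of 0.36, with Psmd8 as its 1 gene that rose and 7 of 8 log2 fold changes above 0. Its FPKM summed to 535 and 524 with circEsyt2 siRNA and to 393 and 399 with scramble siRNA, a ratio of 1.34. Psmd8 alone took 176 and 171 of those FPKM against 96.2 and 101. Psmd11, Psmd12 and Psmd13, structural lid subunits, did not overlap between groups and had like differences. Psmd13 had 24.6 and 26.3 FPKM with circEsyt2 siRNA and 20.005 and 17.5 FPKM with scramble siRNA (0.43, limma adjusted p = 0.0973), with 10.1% of its exon bases antisense to Sirt3. Psmd11 had 33.7 and 38.9 FPKM against 28.6 and 24.3 FPKM (0.44, limma adjusted p = 0.103), and Psmd12 had 56.0 and 61.9 FPKM against 39.0 and 51.2 FPKM (0.39, limma adjusted p = 0.167). Psmd7, the partner of the lid's deubiquitinase, did not overlap either, at 93.3 and 97.9 FPKM against 83.0 and 69.9 FPKM (0.32, limma adjusted p = 0.146). The deubiquitinase itself, Psmd14, overlapped, with 69.9 and 60.2 FPKM against 58.6 and 66.8 FPKM (0.05, limma adjusted p = 0.822), as did Psmd3 (-0.08) and Psmd6 (0.21).

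**Figure D3:**
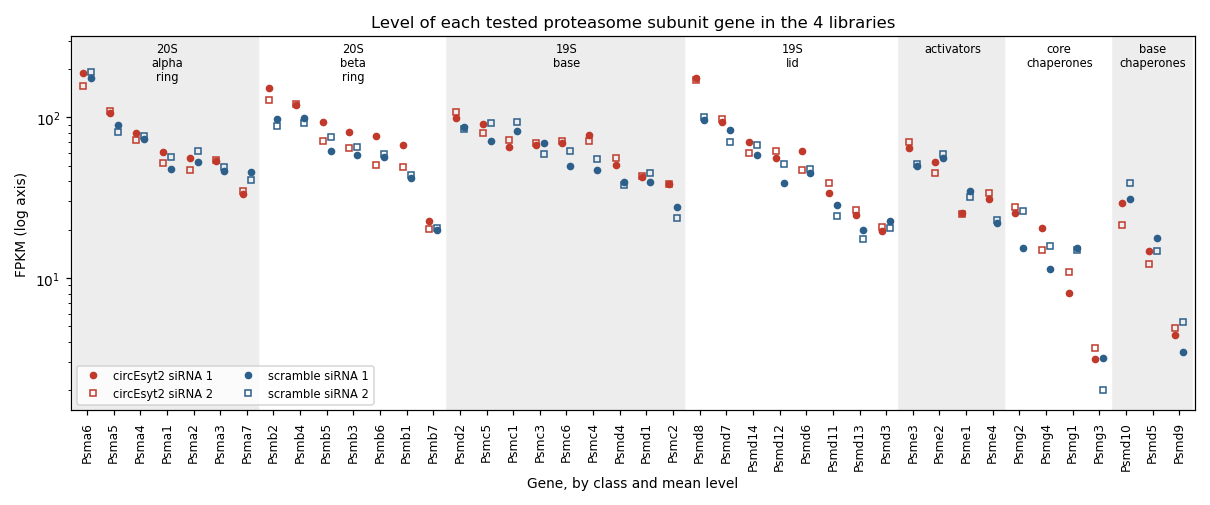
FPKM (log axis) of the 42 tested proteasome genes in each of the 4 libraries, by role and mean level along the x axis, with circEsyt2 siRNA in red, left of scramble siRNA in blue. Each point is 1 library. The 2 Psmd8 values with circEsyt2 siRNA (176 and 171 FPKM) stand clear of the 2 with scramble siRNA (96.2 and 101 FPKM).

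Of the 4 activators, 2 lay above and 2 below scramble siRNA in both circEsyt2 siRNA libraries, where 29.7% of all genes tested lay above and 31.1% below. Psme4 rose, and Psme3, the subunit of the nuclear PA28-gamma cap, had 64.0 and 69.8 FPKM with circEsyt2 siRNA and 50.1 and 51.3 FPKM with scramble siRNA (0.39, limma adjusted p = 0.0727). Psme1 and Psme2, the interferon-inducible subunits of the cytosolic PA28 cap, lay on the other side. Psme1 had 25.4 and 24.9 FPKM against 34.9 and 31.9 FPKM (-0.39, limma adjusted p = 0.0894), and Psme2 had 52.8 and 44.8 FPKM against 56.1 and 59.5 FPKM (-0.24, limma adjusted p = 0.258). The ratio of Psme1 plus Psme2 to Psme3 plus Psme4, chosen after the values were seen and not tested, was 0.822 and 0.672 with circEsyt2 siRNA and 1.26 and 1.23 with scramble siRNA. All 4 together summed to 173 and 173 FPKM against 163 and 166 FPKM. Psme2 is uncertain, since 18.4% of its 100-base stretches are shared with Psme2b, which was listed at 34.3 and 61.5 FPKM against 59.8 and 48.8 FPKM.

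None of the 7 assembly chaperones passed the test in limma or voom. At an unadjusted p under 0.05, 1 was lower, Psmg1 (14.3%, against 15.9% of all genes tested). Psmg1, which pairs with Psmg2 to start the alpha ring, had 8.10 and 10.9 FPKM with circEsyt2 siRNA and 15.4 and 15.0 FPKM with scramble siRNA (-0.63, limma adjusted p = 0.0726), on 41 and 46 reads against 52 and 83. It is the lowest log2 fold change among the 42 tested genes. Psmg2 had 25.3 and 27.5 FPKM against 15.4 and 26.1 FPKM (0.38, limma adjusted p = 0.354), so that scramble siRNA replicate 1 alone stood low. Psmg4, of the second chaperone pair, had 20.6 and 15.0 FPKM against 11.5 and 15.8 FPKM (0.36, limma adjusted p = 0.322), and its partner Psmg3 had 3.12 and 3.65 FPKM against 3.16 and 2.02 FPKM. Both overlapped between groups. Among chaperones of the base, Psmd10, also called gankyrin, had 29.1 and 21.3 FPKM with circEsyt2 siRNA and 31.1 and 38.9 FPKM with scramble siRNA (-0.46, limma adjusted p = 0.174). Psmd5 had 14.7 and 12.2 FPKM against 17.6 and 14.7 FPKM (-0.25, limma adjusted p = 0.363), and Psmd9 had 4.40 and 4.85 FPKM against 3.45 and 5.33 FPKM (0.08, limma adjusted p = 0.842), with 25.5% of its exon bases antisense to Gm26745. The base chaperones summed to 48.2 and 38.3 FPKM against 52.2 and 58.9 FPKM, a ratio of 0.779, where the base itself had 1.14.

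Genes that act with the proteasome were taken from a separate list of 38 symbols, some of them older names of another on the list, of which 34 were found. It was made of ubiquitin genes, shuttle and unfolding factors, receptors, regulators and other partners of the particle. Of these 34, 2 rose, 0 fell and 32 did not pass the test, which is 5.88% higher beside 5.47% of all genes tested. At an unadjusted p under 0.05, 9 were higher and 1 was lower (26.5% and 2.94%, against 14.2% and 15.9% of all genes tested), and the median log2 fold change was 0.19. Akirin2, known from human cells to carry proteasomes into the nucleus, had 82.0 and 89.7 FPKM with circEsyt2 siRNA and 36.2 and 41.6 FPKM with scramble siRNA (log2 fold change 1.12, standard error 0.12, limma adjusted p = 0.00627). Ddi2, the protease that cuts NFE2L1 into its active form, had 10.1 and 11.5 FPKM against 4.78 and 4.68 FPKM (1.04, standard error 0.16, limma adjusted p = 0.0159). Both genes were about as high in each circEsyt2 siRNA library, and 18.3% of the exon bases of Ddi2 overlap Rsc1a1 on the same strand. Each passed in 11 of 18 alternative fits. Nfe2l1 itself had 59.4 and 80.7 FPKM against 46.7 and 47.1 FPKM (0.55, limma adjusted p = 0.0822). It lay above scramble siRNA in both circEsyt2 siRNA libraries, as did 29.7% of all genes tested. Nfe2l2, the related antioxidant factor, had 72.8 and 67.8 FPKM against 58.6 and 67.0 FPKM (0.16, limma adjusted p = 0.407).

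Other partners of the particle itself did not pass. Pomp, the maturation factor of the core, had 17.6 and 17.7 FPKM with circEsyt2 siRNA and 23.6 and 20.2 FPKM with scramble siRNA (-0.29, limma adjusted p = 0.221). Adrm1, a ubiquitin receptor of the base, had 23.2 and 23.4 FPKM against 22.4 and 16.0 FPKM (0.29, limma adjusted p = 0.339), with 21.7% of its 100-base stretches shared with Gm9774. Psmf1, an inhibitor of the core, had 8.45 and 7.89 FPKM against 6.91 and 6.52 FPKM (0.25, limma adjusted p = 0.335). Sem1, a lid subunit whose symbol lies outside the search, had 26.0 and 24.7 FPKM against 18.0 and 18.6 FPKM (0.45, limma adjusted p = 0.0683). Adrm1, Psmf1 and Sem1 lay above and Pomp below scramble siRNA in both circEsyt2 siRNA libraries, where 29.7% of all genes tested lay above and 31.1% below.

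**Figure D4:**
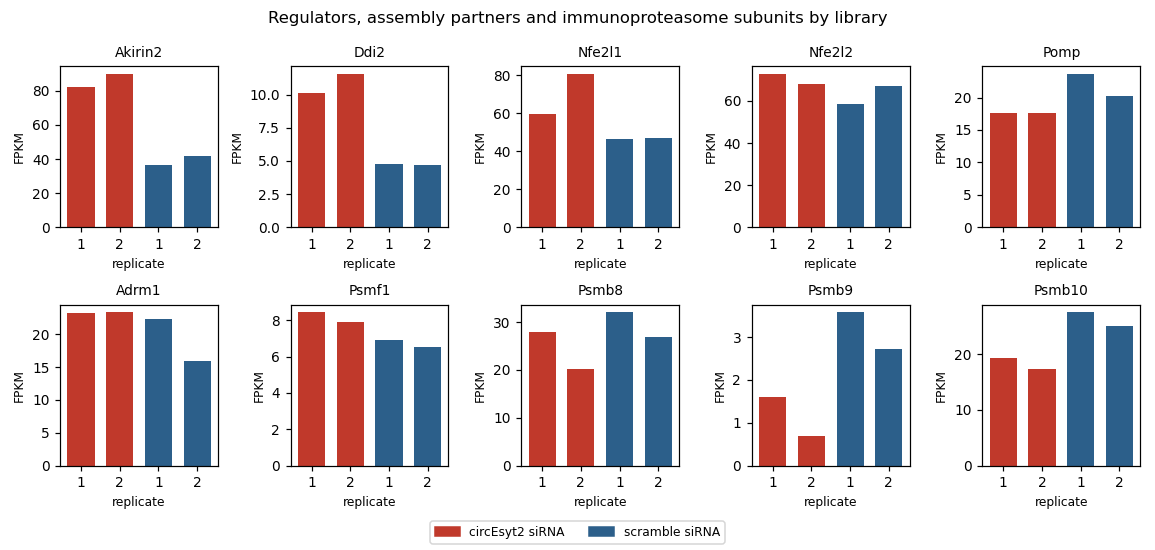
FPKM in each of the 4 libraries of immunoproteasome subunits and of genes that act with the proteasome, with 1 bar for each library and circEsyt2 siRNA left of scramble siRNA. In Akirin2 (82.0 and 89.7 against 36.2 and 41.6 FPKM) and Ddi2 (10.1 and 11.5 against 4.78 and 4.68 FPKM) both circEsyt2 siRNA bars stand well above both scramble siRNA bars.

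The same samples were also examined as reads recovered from the FPKM, with limma's voom, a choice made after the values were seen. Of the 42 genes, 7 rose and 0 fell. Of all 11267 genes in that fit, 897 (7.96%) were higher and 1153 lower. All 5 of the genes named above were among the 7, joined by Psmd4 and Psmd11.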

How the data were processed

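The authors deposited FPKM for 22488 genes in each of 4 libraries. Trimmomatic, HISAT2 and featureCounts, with GRCm38 and mm10, are named per the submitters' processing notes; for their versions, annotation and strand setting, nothing is given in the sources used here. Groups came from the sample titles. The proteasome genes, their classes and the other lists were chosen with earlier results of these data known.

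Genes averaging 1 FPKM or more (11290) were tested as log2(FPKM + 1) in limma 3.58.1 (R 4.3.3; eBayes with a trend), two-sided, with Benjamini-Hochberg adjustment over them all and a threshold of 0.05. The fold changes are on that log2 scale, which understates changes of low genes. The fit was tested on simulated data. Reads were recovered from the FPKM with GENCODE M21 exon-union lengths and were whole within 0.0001 for 96.5% to 96.7% of genes above 0, and for 43 of the 44 members. In genes with at most 20 reads, 62.6% to 75.2% of these numbers were even, against 48.7% to 52.1% above 200, so mates of a pair appear to be counted apart and reads are not independent molecules. An FPKM may thus count reads. Levels of different genes depend on the authors' gene lengths.

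Named with all values were the genes that passed, the most abundant and the 2 of smallest p in each class, genes too low to test, the 3 immunoproteasome subunits and chosen partners; further genes were named for their role, after their values were seen. M21 coordinates are 1-based on GRCm38, and 22391 genes (99.6%) matched by symbol. Alternatives were other pseudocounts, filters, scalings, a replicate block, voom and each library left out.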

Additional observations from a re-analysis of the deposited data

How the results depend on the processing

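The count of 5 higher proteasome genes was 5 with a pseudocount of 0.1 and with both scalings, 4 with a pseudocount of 5, and 7 with voom and at a mean FPKM of at least 5 (which adds Psmd4 and Psme3), but 1 with no filter on low values, 0 with eBayes without a trend (8 at an unadjusted p under 0.05), 3 with quantile normalization and 0 to 1 with a library left out. Leaving out a library makes an arm of 1, assumed to vary like the other arm. At a mean FPKM of at least 5, 1 gene was lower, Psmg1, and Psmb10 was also lower there. Over all 6980 genes in that fit, 835 were higher and 929 lower, against 617 and 820 of 11290 in the main fit. With voom these counts were 897 and 1153 of 11267, and with no filter on low values 418 and 588 of 20745. Quantile normalization gave 630 and 860 of 11290. Over all genes, 203 were higher and 374 lower without the trend, and leave-one-out fits gave 0 to 405 higher and 0 to 622 lower. Without circEsyt2 siRNA replicate 1 these were 405 and 622, but 0 and 0 with genes filtered on all 4 libraries, a fit added after seeing the data, as was voom. That filter gave 276 and 205 without circEsyt2 siRNA replicate 2. Without scramble siRNA replicate 1 or 2, 0 genes passed in limma, with 1959 and 2231 at an unadjusted p under 0.05. Partners called higher were 7 at a mean FPKM of at least 5, 6 with voom and 0 to 3 with a library left out.

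Same-numbered libraries did not deviate together (correlation -0.0507), so numbers were not taken as pairs; with the replicate block 404 genes were higher over all and 2 proteasome genes, Psmb2 and Psmd8.

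The lid median was 0.291 to 0.410 with a library left out, lowest without scramble siRNA replicate 2, where the beta ring (0.30) and core chaperones (0.32) were above it; without circEsyt2 siRNA replicate 2 the beta ring (0.40) was above the lid (0.33). The core chaperone median of 0.33 rests on 4 low genes: it was 0.39 and 0.22 with pseudocounts of 0.1 and 5, 0.36 at a mean FPKM of at least 5, 0.35 and 0.34 with trimmed mean and median ratio scaling, 0.35 with quantile normalization, 0.32 with voom and 0.0803 to 0.325 with a library left out (0.0803 without scramble siRNA replicate 1, 0.2689 and 0.2695 without circEsyt2 siRNA replicate 1 and 2). Log2 fold changes near 0 crossed it. Psma4 had -0.0104 with quantile normalization. With a library left out, Psma1 ran from -0.0147 to 0.227, Psma4 from -0.0555 to 0.0892 (also -0.00765), Psma6 from -0.226 to 0.0459, Psmb6 from -0.192 to 0.400, Psmb7 from -0.00155 to 0.169, Psmc3 from -0.0168 to 0.211, Psmc5 from -0.106 to 0.258 (also -0.0123), Psmd1 from -0.0588 to 0.115, Psmd14 from -0.0552 to 0.156 (also -0.0425) and Psmd9 from -0.171 to 0.336. None of these passed the test, and the cause was not tested.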
